A study of Mus musculus with 6 samples.

Results

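Hand1, Hand2 and the T-box genes Tbx1, Tbx2, Tbx3, Tbx4, Tbx5, Tbx18 and Tbx20 are 9 transcription factor genes that pattern mesenchyme and other embryonic tissues. They were taken by name from the annotation of the array, where each has 1 row with a single gene symbol, and they make up 9 of the 19938 genes tested. Pancreata were taken at E13.5 (embryonic day) from mutant embryos, genotype Pdx1-Cre; Ctnnb1tm1Mmt/+ (Pdx-Cre in the labels), and from control embryos, which the labels call wild type. The labels give no Cre or floxed allele for the controls and no allele that the 2 genotypes share. In the mutants, Cre made under the Pdx1 promoter deletes exon 3 of 1 copy of Ctnnb1, which leaves a β-catenin that is not degraded and keeps canonical Wnt signalling on. In mutant pancreata the study also saw cells with normal levels of pancreatic transcription factors and no nuclear β-catenin. For such cells in newborns it named inefficient excision as the likely reason. The Pdx1 promoter is active in the epithelium of the pancreatic bud and neighbouring gut, so the allele is not targeted to mesenchyme, nerves or vessels, and whole pancreata were measured. Each sample was a pool of 3 pancreata on 1 Affymetrix Mouse Gene ST array, with 3 pools per genotype. The question for each gene was whether its RNA differed between mutant and control pancreata.

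T-box factors bind DNA through the conserved domain that names them, and some of them activate while others repress their targets. Hand1 and Hand2 are basic helix-loop-helix (bHLH) factors that bind E-boxes in pairs with widely expressed partners such as Tcf3, Tcf4 and Tcf12, and Id proteins take these partners away. These genes act in heart, limb, pharynx, gut mesenchyme and sympathetic neurons, and bone morphogenetic protein (Bmp), hedgehog, Wnt and forkhead signals are among the known inputs to them. Tbx2 with Tbx4, and Tbx3 with Tbx5, lie next to each other on the chromosome.

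Of the 9 genes, Hand1 was higher in the mutant pools, Tbx20 and Tbx3 were lower, and Tbx1, Tbx2, Tbx4, Tbx5, Tbx18 and Hand2 did not pass the test. The test was limma, a moderated linear model over all genes, with Benjamini-Hochberg adjustment over 19938 genes and a threshold of 0.05. By this rule 14.1% of all genes tested were called, 6.59% as higher and 7.53% as lower. Against that, 3 of 9 members (33.3%) were called, 1 as higher and 2 as lower, a share that rests on few genes. The median of their log2 changes (mutant minus control) was -0.04 against 0.03 over all genes. The median size of their changes regardless of sign was 0.14, against 0.13 over all genes. Without control pool 1, control pool 3 or mutant pool 3, Hand1 alone passed. Without mutant pool 1 or 2, Hand1 and Tbx20 passed, and without control pool 2, Hand1, Tbx20 and Tbx5 did. Centring the arrays on housekeeping genes gave 764 higher and 2165 lower genes over the whole array, against 1313 and 1502, and kept Hand1 higher. The housekeeping list itself had a mean array value of 11.39 to 11.49 in control pools and 11.54 to 11.62 in mutant pools. The mutant and control pools did not overlap in 4 of the 9 genes (Hand1, Tbx2, Tbx3 and Tbx20), where 30.9% of all genes tested have groups that do not overlap. Because these are bulk tissue samples, fewer cells of a type and less RNA per cell cannot be told apart.

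**Figure D1:**
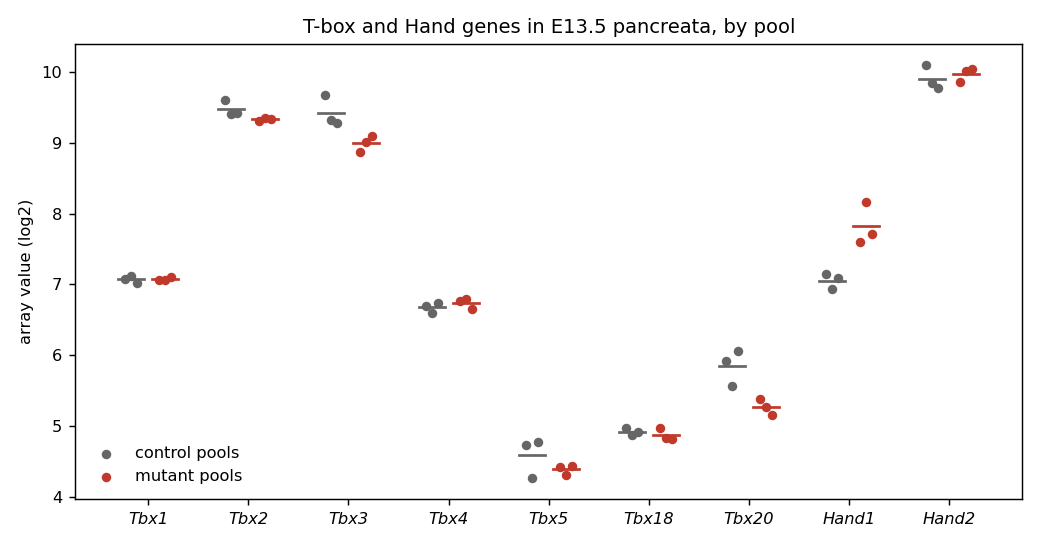
Array values (log2) of Hand1, Hand2 and the 7 T-box genes in each of 3 control and 3 mutant pools, with a point for each pool and a bar for the group mean. Hand1 lies higher in all 3 mutant pools, Tbx20, Tbx3 and Tbx2 lie lower, and the groups of the other 5 genes overlap.

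Array medians lay between 6.37 and 6.47 (log2), and over all genes arrays of the same genotype correlated at 0.993 to 0.997 and arrays of different genotype at 0.973 to 0.979. A list of 9 markers of pancreatic epithelium, which the labelled tissue should hold, had a mean array value of 10.31 to 10.50 in control pools and 7.92 to 8.09 in mutant pools, and 8 of its 9 genes were lower, most of which the study had selected on these arrays. The deposited values used here hold 1 value for the whole Ctnnb1 transcript, so the loss of exon 3 could not be checked. The study's methods call the pools independent, and the p-values measure the spread between these pools. Array values depend on the probes of each gene, so a difference in array value between genes is not read as a difference in RNA.

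The start regions of 2 of the genes are shown to give the sequence context of a called and of an uncalled member: Tbx20, the only called gene with an entry in the RefSeq promoter table used, and Hand2, the gene with matches to 2 of the motifs searched. Each runs 5′ to 3′ on the strand of the gene, from 250 bases before to 50 bases after the RefSeq start, in build GRCm38.p6. The Tbx20 region is chr9:24774254-24774553 on the minus strand and the Hand2 region is chr8:57320733-57321032 on the plus strand. Capitals mark a Hand E-box (CATCTG) that begins 246 bases before the start of Hand2, and a GATA motif (TTATCT, the reverse complement of AGATAA) that begins 172 bases before it. The Tbx20 region is all in lower case because none of the motifs was found in it.
Tbx20: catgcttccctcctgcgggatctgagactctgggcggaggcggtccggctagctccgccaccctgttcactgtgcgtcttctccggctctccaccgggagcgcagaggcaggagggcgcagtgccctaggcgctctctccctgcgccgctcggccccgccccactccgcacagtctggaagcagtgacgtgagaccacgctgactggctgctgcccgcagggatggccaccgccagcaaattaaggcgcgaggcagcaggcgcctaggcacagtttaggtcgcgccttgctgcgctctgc
Hand2: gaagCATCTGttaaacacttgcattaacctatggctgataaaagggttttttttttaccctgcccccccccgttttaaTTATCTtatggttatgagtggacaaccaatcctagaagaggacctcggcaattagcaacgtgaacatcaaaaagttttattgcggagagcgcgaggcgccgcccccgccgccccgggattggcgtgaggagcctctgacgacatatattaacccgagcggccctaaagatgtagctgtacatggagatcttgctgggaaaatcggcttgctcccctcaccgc

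Motifs were searched on both strands in the regions of the 5 genes with an entry, Tbx1 (which has 2 starts), Tbx4, Tbx18, Tbx20 and Hand2. Hand1, Tbx2, Tbx3 and Tbx5 were not in the table. The Hand E-box CATCTG was found in the regions of Hand2, Tbx4 and Tbx18, and it occurs in 17.2% of 32851 promoter regions of the same length. The GATA motif AGATAA, found here in Hand2 alone, occurs in 11.2% of them. The TCF/LEF motif CTTTGA, the GLI motif CCACCCA, the forkhead motif TGTTTAC and the T-box motif GGTGTGA were in none of these 5 genes' regions, and occur in 16.0%, 9.3%, 3.65% and 3.98% of all regions. A match or its absence describes these letters in this window and nothing about binding.

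Hand1, which drives growth and patterning of the left ventricle, the placenta and lateral mesoderm, was the only one of the 9 genes that rose. Its log2 array values read 7.14, 6.93 and 7.09 in control and 7.60, 8.17 and 7.71 in mutant pools. All 3 mutant pools lay above all 3 control pools, and the second mutant pool was the highest. The means were 7.06 ± 0.11 and 7.83 ± 0.30 (log2, SD, n = 3), a log2 change of 0.77 (standard error 0.15 and limma adjusted p = 0.0053), or 1.70-fold with a 95% interval of 1.36 to 2.14. Hand1 passed the test under every alternative way of processing except a threshold of 2-fold, with adjusted p from 0.00262 to 0.0399 in limma and log2 changes from 0.55 to 0.88.

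Hand2, the relative of Hand1 that is needed for the right ventricle, limb polarity and sympathetic and enteric neurons, did not pass the test. Its log2 array values read 10.10, 9.84 and 9.77 in control and 9.85, 10.01 and 10.04 in mutant pools. The groups overlapped, and a control pool held the highest value. The log2 change was 0.06 (standard error 0.11, 95% interval -0.19 to 0.32, adjusted p = 0.798 from limma), and its sign depends on the scaling of the arrays, being -0.06 with arrays centred on housekeeping genes. The mutant minus control change of Hand1 exceeded that of Hand2 by 0.71 (standard error 0.17), and the per-array difference of Hand1 and Hand2 was higher in 3 of 3 mutant pools than in any control pool. The exact two-sided permutation test over the 6 arrays gave p = 0.1, the smallest it can give with 3 pools against 3, and 0.167 after Benjamini-Hochberg adjustment over the 5 pairs of related genes compared.

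Tbx20, a T-box gene of cardiac muscle, endocardium and motor neurons, was lower in the mutant pools. Its log2 array values read 5.92, 5.57 and 6.06 in control and 5.39, 5.28 and 5.16 in mutant pools. The groups did not overlap, and the lowest control pool, the second, lay closest to the mutant pools. The means were 5.85 ± 0.25 and 5.28 ± 0.12 (log2, SD, n = 3), a log2 change of -0.57 (standard error 0.13 and limma adjusted p = 0.0164), or 1.49-fold lower. All 3 mutant pools lay under the lower quartile of the mean array values of all genes (5.44), a range in which changes can be compressed. This call rested on single pools: with limma the adjusted p was 0.0663 without control pool 1, 0.0645 without control pool 3 and 0.0618 without mutant pool 3. It was 0.0764 when all 35556 rows of the table were fitted.

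Tbx3, a repressor that acts in limb, mammary gland, heart conduction tissue and liver, was also lower, close to the threshold. Its log2 array values read 9.67, 9.32 and 9.28 in control and 8.86, 9.02 and 9.10 in mutant pools. The groups did not overlap, and the first control pool stood above the other control pools. The means were 9.42 ± 0.22 and 8.99 ± 0.12 (log2, SD, n = 3), a log2 change of -0.43 (standard error 0.12 and limma adjusted p = 0.0475), or 1.35-fold lower. The call was lost in limma when any single pool was left out, with adjusted p = 0.162, 0.0586 and 0.0520 without control pools 1, 2 and 3 and 0.181, 0.0796 and 0.0623 without mutant pools 1, 2 and 3. It was also lost with arrays centred on their medians (adjusted p = 0.0650) and with all rows of the table fitted (0.144), while the log2 change stayed between -0.61 and -0.30 under the alternatives.

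**Figure D2:**
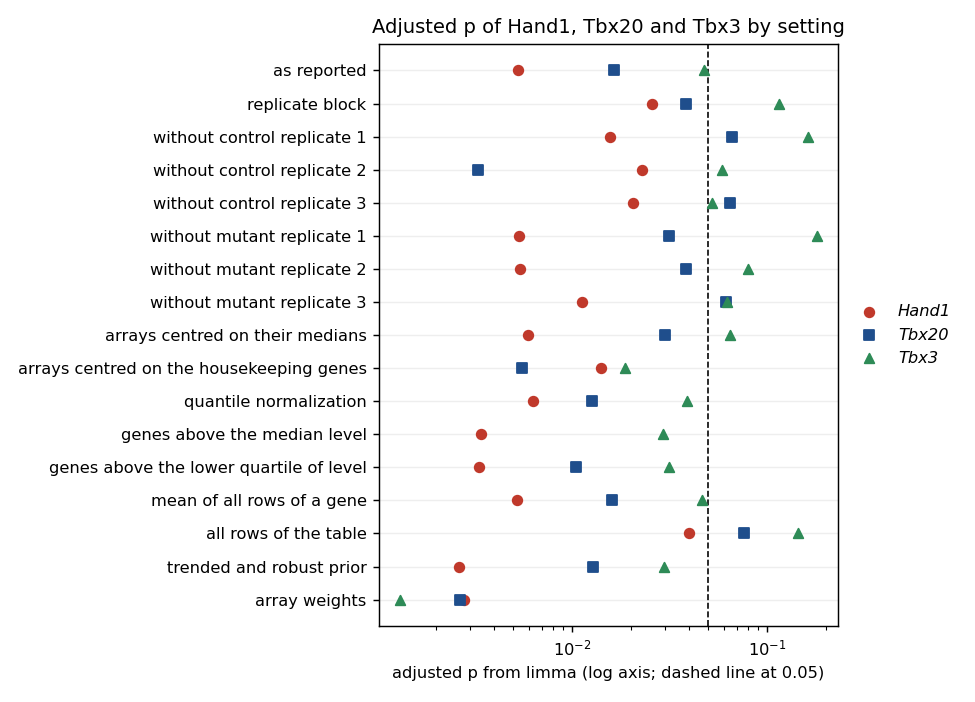
Adjusted p from limma (log axis) of Hand1, Tbx20 and Tbx3 under each way of processing, with the threshold of 0.05 as a dashed line. Hand1 stays under the line at 0.0399 or less, while Tbx20 reaches 0.0764 and Tbx3 reaches 0.181.

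Tbx2, the closest relative of Tbx3 and likewise a repressor, gave log2 array values of 9.60, 9.40 and 9.42 in control and 9.31, 9.35 and 9.33 in mutant pools. All 3 mutant pools lay just below the lowest control pool, and the mutant pools lay close to each other. The log2 change was -0.14 (standard error 0.09, 95% interval -0.35 to 0.06, adjusted p = 0.397 from limma), and no alternative brought it past the threshold. The change ran from -0.27 with arrays centred on housekeeping genes to -0.080 without control pool 1. The change of Tbx2 lay above that of Tbx3 by 0.28 (standard error 0.09, exact two-sided permutation p = 0.1, adjusted 0.167).

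Tbx4 and Tbx5, the neighbours of Tbx2 and Tbx3 that act in hindlimb, forelimb, lung and heart, did not pass the test. Tbx4 gave log2 array values of 6.69, 6.60 and 6.73 in control and 6.77, 6.79 and 6.65 in mutant pools. The groups overlapped, with a log2 change of 0.06 (standard error 0.09, 95% interval -0.14 to 0.26, adjusted p = 0.762 from limma) that became -0.06 with arrays centred on housekeeping genes. Tbx5 gave log2 array values of 4.74, 4.26 and 4.77 in control and 4.43, 4.31 and 4.44 in mutant pools. The second control pool was the lowest of all 6, below every mutant pool, while the other control pools lay above them. The log2 change was -0.20 (standard error 0.14, 95% interval -0.51 to 0.11, adjusted p = 0.425 from limma), and without control pool 2 it was -0.37 (adjusted p = 0.0478). Under the other alternatives the change of Tbx5 reached -0.11 at its smallest.

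Between these linked and related genes, no difference of changes could pass an exact test with 3 pools against 3. The change of Tbx2 relative to its neighbour Tbx4 was -0.20 (standard error 0.08, exact permutation p = 0.1, adjusted 0.167). The change of Tbx3 relative to its neighbour Tbx5 was -0.23 (standard error 0.19, exact permutation p = 0.3, adjusted 0.3), and that of Tbx4 relative to Tbx5 was 0.26 (standard error 0.15, exact permutation p = 0.2, adjusted 0.25). The tested genes next to the 9 members on their chromosomes, other than members themselves, numbered 14. None was called by limma, 5 had an unadjusted p under 0.05, and their log2 changes ran from -0.27 (Larp1, beside Hand1) to 0.34 (Gnb1l, beside Tbx1, adjusted p = 0.0562).

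Tbx1, the pharyngeal arch and outflow tract gene, stayed between 7.03 and 7.12 in all 6 pools. Its log2 array values read 7.07, 7.12 and 7.03 in control and 7.06, 7.07 and 7.11 in mutant pools, with a log2 change of 0.01 (standard error 0.09, 95% interval -0.18 to 0.20, adjusted p = 0.978 from limma). Tbx18, a repressor of epicardium, somite and ureteral mesenchyme, gave log2 array values of 4.97, 4.87 and 4.91 in control and 4.98, 4.83 and 4.82 in mutant pools. Its groups also overlapped, with a log2 change of -0.04 (standard error 0.09, 95% interval -0.25 to 0.16, adjusted p = 0.84 from limma). The mean array values of Tbx5 (4.49) and Tbx18 (4.90) also lay under the lower quartile of all genes (5.44), where a low RNA level and a dim probe set look alike.

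The remaining T-box genes and the bHLH relatives of Hand give the setting of each family. Of 8 other T-box genes tested, 1 was higher, 1 was lower and 6 were not called. Called were 25% of these and 37.5% of the 8 Twist-family genes, against 14.1% of all genes tested, shares that rest on few genes. Tbx6, a gene of the presomitic mesoderm, was lower with a log2 change of -0.70 (standard error 0.12 and limma adjusted p = 0.00244). Tbx19, which acts in pituitary corticotrophs, was higher with a log2 change of 0.49 (standard error 0.09 and limma adjusted p = 0.00475). The mean array value of Tbx19 (5.31) lay under the lower quartile of all genes (5.44), so it was not in the fit of genes above that level. Of the 8 Twist-family bHLH genes closest to Hand, 3 were higher and 5 did not pass: Tcf21, a factor of visceral mesenchyme, rose by 1.26 (standard error 0.14), Scx of tendon progenitors by 0.88 (standard error 0.12) and Twist1 of mesenchyme by 0.57 (standard error 0.12) on the log2 scale. Twist1 lost its call in limma when all rows of the table were fitted (adjusted p = 0.0541). The rise of Hand1 of 0.77 lay between those of Scx and Twist1, a side-by-side description without a test.

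**Figure D3:**
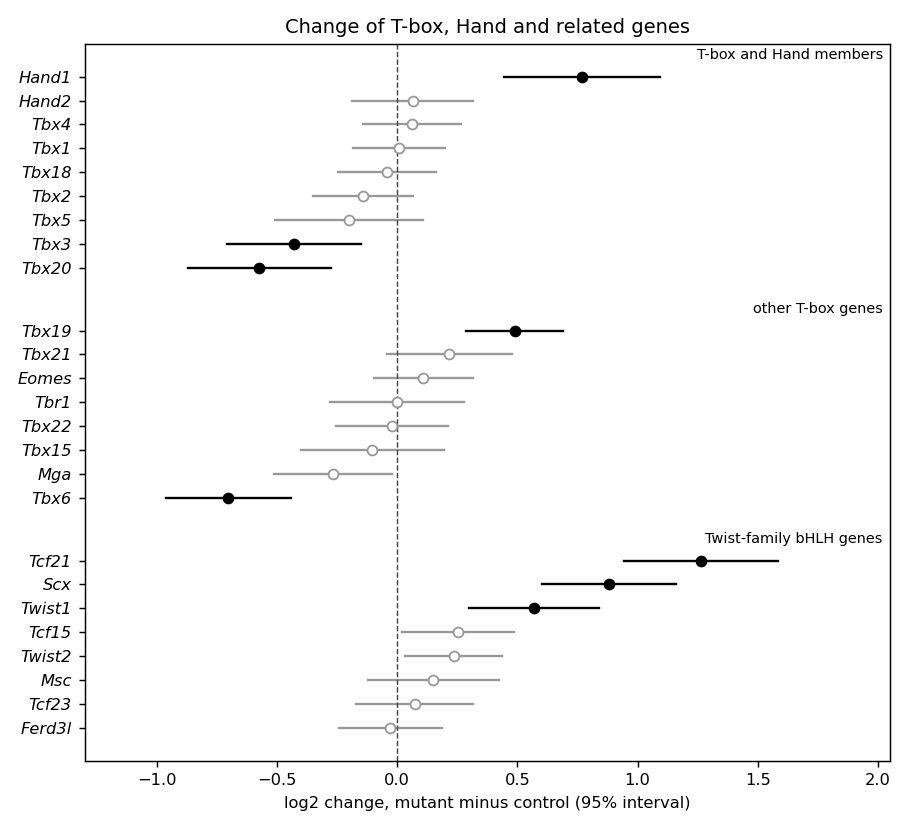
Log2 change (mutant minus control) with its 95% interval for Hand1, Hand2 and the 7 T-box genes, the other T-box genes and the Twist-family bHLH genes, filled where the adjusted p from limma was under 0.05. Of the 9 members, Hand1 lies to the right of 0 and Tbx20 and Tbx3 to the left with filled points, while Tcf21 at 1.26 is the largest change shown.

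Partners that Hand1 and Hand2 need for DNA binding were not called, while 3 of the Id inhibitors of those partners were higher. The change of Tcf3 was 0.19, that of Tcf4 was 0.25 and that of Tcf12 was 0.15 on the log2 scale, and none of them passed the test in limma. Id3 rose by 1.48 (standard error 0.16), Id4 by 1.18 (standard error 0.11) and Id1 by 0.78 (standard error 0.13), so that 3 of the 7 genes of this list were higher and none was lower. Id2 changed by 0.30 on the log2 scale and was not called (adjusted p = 0.101 from limma). With a trended and robust prior 4 genes of the list were higher, and with array weights 5 were. In the main fit 42.9% of the list was called, against 14.1% of all genes tested. The difference between partners and Id genes was not tested.

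Of 18 cofactors of T-box and Hand factors, 6 were higher, 2 were lower and the other 10 were not called. That is 44.4% called, against 14.1% of all genes tested. Gata5, a zinc finger factor of heart and gut, rose by 1.75 (log2, standard error 0.12), Myocd, a coactivator of smooth and heart muscle genes, by 1.70 (standard error 0.11) and Nkx2-3, a homeobox factor of gut mesenchyme and spleen, by 1.09 (standard error 0.13). Gata4, a partner of Tbx5, Tbx20 and Hand2 in the heart and an early factor of the pancreatic bud, fell by 1.47 (standard error 0.17). The study had selected Gata4, Gata5, Nkx2-3 and Myocd on these arrays, so this count is no independent evidence of direction. Among the inputs known to act upstream of T-box and Hand genes, 10 of 15 were higher, 2 were lower and the other 3 were not called, with a median log2 change of 0.70 against 0.03 over all genes. They include Shh, a hedgehog ligand of gut epithelium, with a log2 change of 2.17 (standard error 0.10), Bmp4, a known inducer of Hand and Tbx genes, with 2.20 (standard error 0.11), and the forkhead factors of gut mesenchyme Foxf1 with 3.54 (standard error 0.11) and Foxf2 with 4.01 (standard error 0.19). Foxf1, Foxf2 and hedgehog genes had also been selected on these arrays by the study. The share of inputs called (80%, against 14.1% of all genes tested) and their median change are therefore no independent evidence of direction. The 2 lower inputs were Wnt2b, with a log2 change of -0.73 (standard error 0.11), and Bmp7, with -0.63 (standard error 0.10). Bmp2 was among those not called, with 0.01.

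Of 22 genes reported elsewhere as targets of T-box or Hand factors, 5 were higher, 3 were lower and the other 14 were not called, with a median log2 change of 0.0047 against 0.03 over all genes. That is 36.4% called, against 14.1% of all genes tested. Fgf10, a target of Tbx4 and Tbx5 in limb and lung, rose by 1.45 (log2, standard error 0.15), Gja5, a gap junction gene activated by Tbx5 and repressed by Tbx2 and Tbx3, by 1.20 (standard error 0.14) and Tgfb2, a growth factor linked to Tbx2 in the heart cushions, by 0.97 (standard error 0.12). Phox2a, a sympathetic neuron factor that lies in a network with Hand2, fell by 0.83 (standard error 0.10). Nppa, the natriuretic peptide gene that Tbx5 activates and Tbx2 and Tbx3 repress, had a log2 change of 0.10 (adjusted p = 0.725 from limma). The 3 lower genes were Phox2a, Gja1, a gap junction gene with a log2 change of -0.39, and Tbx3 itself. Only 1 of the list was lower in limma when control pool 1, 2 or 3 or mutant pool 1 was left out, and with all rows of the table fitted 3 were higher and 1 was lower.

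Marker lists of the cell types known to express these genes were set beside them, and their part in the results was not tested. Heart muscle markers, of which 1 of 12 was higher (Nkx2-5, log2 change 0.65, standard error 0.11) and none was lower, had mean array values of 6.09 to 6.13 in control pools and 6.11 to 6.26 in mutant pools. Nkx2-5 is also on the list of cofactors, and the other 11 heart markers were not called. Called were 8.33% of heart muscle, 50% of mesothelium and 88.9% of sympathetic and enteric neural markers, against 14.1% of all genes tested. Markers of mesothelium, the lining cells of the organ, were lower in 5 of 10 genes, among them Lrrn4 by a log2 change of -0.94 (standard error 0.15), and their mean was 7.84 to 8.14 in control and 7.54 to 7.79 in mutant pools. With control pool 2 or 3 or mutant pool 1 left out, or with a replicate block, 3 of the 10 were lower. Wt1 and Upk3b lost their calls in each of these fits. Without mutant pool 2, 1 of the mesothelium markers was higher. Sympathetic and enteric neural markers, the setting in which Hand2 is best known outside the heart, were lower in 7 of 9 genes and higher in 1, with a mean of 6.93 to 7.05 in control and 6.03 to 6.14 in mutant pools. The higher gene, Gata3, lost its call without control pool 2 or 3 or mutant pool 1 or 3. Ret, the receptor of enteric neural precursors, had the largest fall of the list, by 2.59 (log2, standard error 0.09). Phox2a fell by 0.83 (standard error 0.10) and Sox10 by 0.61 (standard error 0.10). Hand2 in the same pools had the change of 0.06 given above. Which cells of the pancreas carried the RNA of these markers was not tested.

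Gut smooth muscle markers were higher in 7 of 10 genes and lower in 1, with a mean array value of 7.15 to 7.22 in control pools and 7.92 to 8.05 in mutant pools. Called were 80% of this list, 62.5% of pericyte, 50% of general mesenchyme and 25% of lung markers, against 14.1% of all genes tested. Pericyte and vessel wall markers were higher in 3 and lower in 2 of 8 genes, with a mean of 8.87 to 8.92 in control and 8.76 to 8.84 in mutant pools. Without mutant pool 1, 1 of them was higher. The median log2 change of this list was 0.32, and its largest change was that of Anpep, at -2.07 (standard error 0.13). General mesenchyme markers were higher in 3 and lower in 2 of 10 genes, with a mean of 10.20 to 10.40 and 10.06 to 10.23. Without control pool 1 or 3 or mutant pool 3, 1 of them was lower. The median log2 change of the mesenchyme list was 0.0046, and its largest change was that of Prrx1, at -2.49 (standard error 0.14). Lung markers, a list that holds Tbx4 and Tbx5, were higher in 1 (Fgf10) and lower in 1 of 8 genes, with a mean of 5.28 to 5.45 in control and 5.44 to 5.58 in mutant pools. The lower lung marker, Sftpc with a log2 change of -0.48, lost its call without control pool 1 and without mutant pools 1 or 3, and without control pool 2 there were 2 lower genes in the list, with Tbx5. The mean array value of Sftpc (4.86) lay under the lower quartile of all genes (5.44). The mean over the 9 members themselves was 7.10 to 7.32 in control pools and 7.14 to 7.20 in mutant pools, so the groups overlapped.

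**Figure D4:**
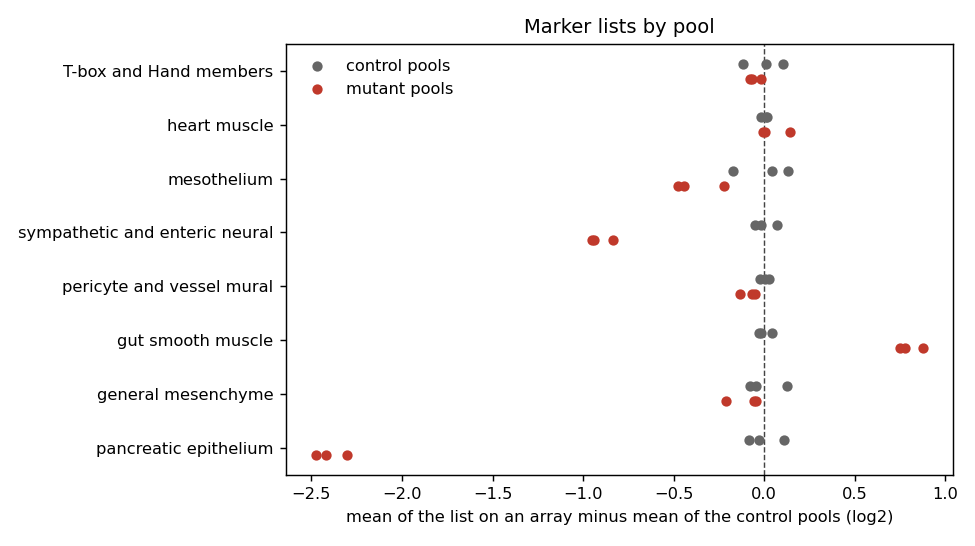
Mean array value (log2) of the 9 genes and of each of 7 marker lists on each array, minus the mean of the list over the 3 control pools, with a point for each pool. The points of the 9 members overlap between genotypes, and those of gut smooth muscle lie higher in the mutant pools. Those of pancreatic epithelium, sympathetic and enteric neural, mesothelium, and pericyte and vessel wall markers lie lower.

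The genes whose pattern over the 6 arrays was most like that of Hand1, by the root mean square difference of values centred on each gene's mean, were Plppr1 (0.0908 log2 units), Saa2 (0.101) and Tcerg1l (0.105). Their log2 changes were 0.73, 0.76 and 0.73. Those most like Tbx20 were Rnf213 (0.0457 log2 units), Tenm4 (0.0496) and Pex7 (0.0657), with log2 changes of -0.65, -0.63 and -0.52. Likeness over 6 arrays is a description of these arrays, which share the genotype difference.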

How the data were processed

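RNA of 6 pools, 3 control and 3 mutant, each of 3 pancreata per the study's methods, was measured on 1 Affymetrix Mouse Gene ST array per pool, and genotype and replicate came from the sample labels. The authors deposited log2 expression values with 1 value per transcript cluster. Background correction, summarization, normalization and genome build were not given in the sources used here. Detection calls and probe signals were not used, and the number of arrays limits the precision.

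Of 35556 rows, 21789 had 1 gene symbol, 1621 several and 12146 none in the platform annotation, and the row with the highest mean was used per gene, which left 19938 genes. Mutant was compared with control with R 4.3.3 and its package limma 3.58.1 (lmFit, then eBayes, no covariate, no filter), with Benjamini-Hochberg adjustment over all genes and a threshold of 0.05, and intervals are 95% and not adjusted. The step was tested on simulated data. The 5 pairs of related genes were compared with an exact two-sided permutation test, which cannot go below p = 0.1. Tables and figures used Python 3.11.15, pandas 2.3.3 and matplotlib 3.10.9.

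The members and lists were chosen with earlier results of these data known, and the study had selected Foxf1, Foxf2, Gata4, Gata5, Nkx2-3, Myocd, Acta2, hedgehog genes and most pancreatic epithelium markers on these arrays, so counts over lists are descriptions. Named genes were taken from all members, up to 4 genes of each list with the largest change past the threshold (or the smallest p), the brightest marker of each cell type, chromosome neighbours, and the 3 genes most like the member that rose and the one that fell most. Not every gene that this rule picks is given in the text. Nppa, Gja1, Gata3, Tcf3, Tcf4, Tcf12, Id2, Wnt2b, Bmp7, Bmp2 and Sox10 were named after their values were seen. Some listed genes are not analysed here, and counts are over the genes tested. Alternatives were a replicate block, each array left out, other scalings, filters on level, other handling of rows, a trended and robust prior, array weights and other thresholds. Promoter sequences came from RefSeq (GRCm38.p6). The 21698 rows whose Entrez identifiers matched RefSeq were used for names alone.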

Additional observations from a re-analysis of the deposited data

How the results depend on the processing

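Of the 9 genes, 3 passed the test (1 higher, 2 lower). Leaving out 1 array each gave totals of 1 to 3, with 0 to 2 lower and 1 higher throughout. The replicate block gave 1 lower gene (2 in total), as did arrays centred on their medians, and the fit of genes above the median level also gave 1, since Tbx20 is not in that fit. With all rows of the table fitted, 1 gene passed in total and 0 were lower, and an adjusted p under 0.01 left a total of 1 and 0 lower. A threshold of 2-fold left 0 in total, 0 higher and 0 lower.

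Same-numbered arrays of the 2 genotypes deviated together with correlations of 0.014, -0.154 and -0.0464, and 1 of 6 arrays correlated best with its own number, so the numbers were not taken as pairs. Under the replicate block Tbx3 lost its call (adjusted p = 0.116 in limma), and the block gave 1011 higher and 1274 lower genes over all.

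The sign turned only in genes that were not called. With single arrays left out, Tbx1 ran from -0.017 (without control replicate 3, and -0.0076 without mutant replicate 3) to 0.029, and Hand2 from -0.0042 (without control replicate 3) to 0.16. With arrays centred on housekeeping genes Tbx1 was at -0.12, Tbx4 at -0.062 and Hand2 at -0.058. With array weights Tbx1 was at -0.0044, Hand2 at -0.087 and Tbx18 at 0.025. Centring on housekeeping genes moved the median change of all genes by -0.12 and left 764 genes higher and 2165 lower, so that 26.1% of calls were higher against 46.6%. Of the 9 housekeeping genes tested, 2 were called higher and 0 lower, and their mean lay higher in the mutant pools. This scaling takes that rise off the change of every gene. Over all genes 1313 were higher and 1502 lower, against 843 higher without mutant replicate 1, 3025 and 2422 with array weights, 723 higher at an adjusted p under 0.01, and 260 and 417 at 2-fold. The cause of the other differences in these counts was not tested. Differences between the changes of related genes were recomputed with each array left out and with rows averaged per gene, and there moved by less than the spread between replicates. With 3 arrays a group, changes of the size of that in Tbx2 could not be told from 0.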
